A study of Homo sapiens with 6 samples.

Results

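The kynurenine and NAD synthesis genes are 10 genes whose enzymes take tryptophan to kynurenine and on to NAD, recycle or methylate nicotinamide, or phosphorylate NAD: ACMSD, AFMID, KYNU, KMO, QPRT, NADSYN1, NAMPT, NMNAT1, NNMT and NADK. They were chosen by gene symbol in the annotation of the array, which gave 22 probe sets among 45253 that name a single gene, and 10 genes among 18239. HK-2 is an established human line of kidney proximal tubule origin, and cisplatin is a platinum drug that crosslinks DNA and is toxic to this part of the nephron. RNA was hybridized to 6 Affymetrix Human Genome U219 arrays, a single-colour design in which each probe set reads the 3′ part of a transcript. The groups were untreated control cells, cells given 50 μM cisplatin for 6 h and cells given 50 μM cisplatin for 24 h, with 2 arrays in each. No time is attached to the untreated cells, so drug and time in culture cannot be told apart. The arrays of a group are called biological replicates without word on how the cultures were separated, and p-values therefore measure the spread between these samples.

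The kidney is among the tissues that can make NAD from tryptophan. IDO1 or TDO2 opens the ring of tryptophan, arylformamidase (AFMID) releases kynurenine, and KMO and KYNU carry it towards an unstable intermediate that either closes by itself to quinolinate or is diverted by ACMSD. QPRT turns quinolinate into a mononucleotide, NMNAT enzymes add the adenylyl group, and NADSYN1 completes NAD by adding the amide. NAMPT starts the salvage route from nicotinamide, NNMT removes nicotinamide by methylation, and NADK makes NADP from NAD.

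Promoter sequence is shown for 4 members, the 3 that were higher than control at 6 h and NAMPT, which was lower at 24 h, because these are the changes described below. Each window holds 250 bases before and 50 bases after a transcription start in the RefSeq annotation of GRCh38.p14, read 5′ to 3′ on the strand of the gene. They lie at chr17:78187112-78187411 on the plus strand (AFMID), chr11:71452953-71453252 on the plus strand (NADSYN1), chr1:9943225-9943524 on the plus strand (NMNAT1) and chr7:106284934-106285233 on the minus strand (NAMPT). Capitals mark matches on either strand to 7 short motifs: the GC box GGGCGG, the box named CCAAT for its letters, the TATA box TATAAA, the E-box CACGTG, the AP-1 site TGANTCA, the core of the antioxidant response element TGACNNNGC, and the decamer of the p53 site.
AFMID: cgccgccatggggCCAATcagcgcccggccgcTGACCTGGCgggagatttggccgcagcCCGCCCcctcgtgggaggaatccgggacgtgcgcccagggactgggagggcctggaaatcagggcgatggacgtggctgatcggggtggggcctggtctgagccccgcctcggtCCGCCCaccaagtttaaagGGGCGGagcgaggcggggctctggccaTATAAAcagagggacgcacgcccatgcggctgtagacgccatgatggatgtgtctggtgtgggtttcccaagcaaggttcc
NADSYN1: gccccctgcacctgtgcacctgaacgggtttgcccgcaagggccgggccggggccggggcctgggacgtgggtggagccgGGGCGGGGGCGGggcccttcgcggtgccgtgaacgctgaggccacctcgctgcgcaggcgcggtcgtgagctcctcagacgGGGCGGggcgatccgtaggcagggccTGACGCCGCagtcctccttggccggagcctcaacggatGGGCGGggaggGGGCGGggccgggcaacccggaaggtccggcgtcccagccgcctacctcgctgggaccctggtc
NMNAT1: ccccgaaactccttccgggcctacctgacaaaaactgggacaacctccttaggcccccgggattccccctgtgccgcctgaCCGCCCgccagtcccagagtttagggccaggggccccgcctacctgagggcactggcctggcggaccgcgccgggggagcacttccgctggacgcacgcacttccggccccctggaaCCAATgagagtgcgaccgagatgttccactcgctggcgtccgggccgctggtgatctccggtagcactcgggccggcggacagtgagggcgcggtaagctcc
NAMPT: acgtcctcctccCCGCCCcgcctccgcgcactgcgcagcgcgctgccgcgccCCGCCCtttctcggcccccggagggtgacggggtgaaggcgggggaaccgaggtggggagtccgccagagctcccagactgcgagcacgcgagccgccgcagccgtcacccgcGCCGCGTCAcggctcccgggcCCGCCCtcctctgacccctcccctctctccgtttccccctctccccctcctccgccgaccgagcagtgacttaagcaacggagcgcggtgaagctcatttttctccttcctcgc

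The AFMID window held 3 GC boxes, 1 CCAAT, 1 TATA box and 1 antioxidant response element core. NADSYN1 had 5 GC boxes and 1 such core, the richest in GC boxes of the windows printed. NMNAT1 had 1 GC box and 1 CCAAT, and NAMPT 3 GC boxes and 1 antioxidant response element core. No match overlapped another in these windows. Of the 10 members, 8 had a window, 11 windows in all, since NADK had 3 and QPRT had 2. GC boxes were found in 5 of the 8 and in 45.0% of all 35116 windows, CCAAT in 5 and in 34.6%, TATAAA in 4 and in 11.5%, and CACGTG in 1 and in 7.26%. The antioxidant response element core was in 3 members and in 13.3% of windows, TGANTCA in 0 and in 7.71%, and the decamer of the p53 site in 0 and in 6.63%. A member counted if any of its windows matched, while the shares are per window, so the counts and shares are not on the same footing. NADK matched CCAAT and TATAAA in 1 of its 3 windows. A match gives letters in a window only, and ACMSD and NNMT were not in the promoter table.

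The deposited values are log2 signals, each array having been set to 1 common distribution, so a change is relative to the rest of the array. Probe sets differ in affinity, and levels are therefore not ranked between genes. Each member is given by its brightest probe set, tested in limma over all 18239 genes with Benjamini-Hochberg adjustment, and passed at an adjusted p under 0.05. The median of 23 control probe sets without a target was between 2.39 and 2.56 on the 6 arrays, as a mark of background. All 23 were higher at 24 h than in control, by 0.06 to 1.15, while at 6 h their differences from control lay between −0.07 and 0.04. The mean signal was above 72.1% of all probe sets for AFMID, 23.8% for KMO, 42.5% for KYNU, 52.8% for ACMSD, 94.4% for QPRT, 62.3% for NADSYN1, 60.5% for NMNAT1, 82.1% for NADK, 90.1% for NAMPT and 97.4% for NNMT. These shares place a probe set within the array and do not order transcript levels. Replicate arrays correlated at 0.996 to 0.998 across probe sets, and arrays of different groups at 0.961 to 0.985. The spike-in probe sets, a scale outside the cell, exceeded control by 0.37 (6 h) and 0.89 (24 h), and scaling to them moved the median change of all genes at 24 h to −0.78, against 0.10 in the deposited values. Where scaling to all spike-ins turned a member's direction against control, that is said beside it. The β-actin 3′ minus 5′ signal, a measure of RNA integrity, was 2.07 and 1.11 in control, 2.02 and 1.53 at 6 h, and 1.97 and 2.83 at 24 h. Its part in the results was not tested.

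**Figure D1:**
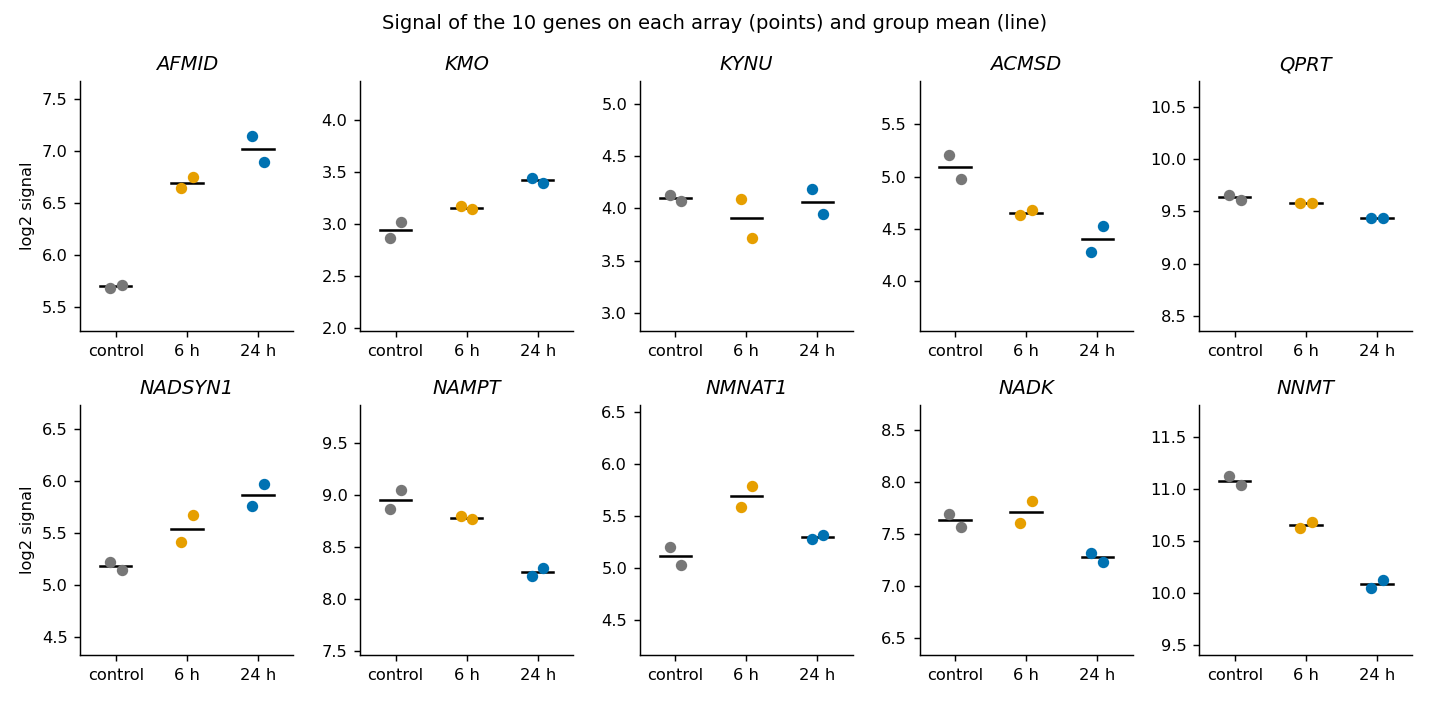
Log2 signal of the brightest probe set of each of the 10 members on every array (points), in control cells and after 6 h and 24 h of cisplatin, with the mean of 2 arrays as a line. AFMID was higher on all 4 cisplatin arrays (6.64 to 7.14) than on both control arrays (5.69 and 5.71), and NNMT was lowest on the 24 h arrays (10.05 and 10.13).

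Relative to control, 3 members were higher and 4 lower at 24 h, and 3 did not pass. AFMID, KMO and NADSYN1 rose, while ACMSD, NAMPT, NNMT and NADK fell. Over all genes, 31.2% were higher and 23.0% lower at that time. The members' higher count is near that share and their lower count is above it, a difference that was not tested. The median change of the members was −0.11, and that of all genes was 0.10. At 6 h, 3 members were higher (AFMID, NADSYN1 and NMNAT1) and 2 lower (ACMSD and NNMT), against 14.0% higher and 15.8% lower over all genes. Between 24 h and 6 h, 2 were higher (AFMID and KMO) and 4 lower (NAMPT, NMNAT1, NNMT and NADK), against 21.2% and 16.7% over all genes. These comparisons share arrays, and their counts are not independent of each other. Without any 1 of the 6 arrays, the 24 h against 6 h comparison gave 0 or 1 higher member. By the rule of the study's methods, a change of at least 2-fold with an unadjusted p under 0.01, AFMID at 24 h was the 1 member to pass. That rule took 12.1% of all genes at 24 h and 4.93% at 6 h, and for 24 h against 6 h it took 3.37%. The arrays of the groups did not overlap for 9 members at 24 h against control (76.6% of all genes), 8 at 6 h (63.5%) and 9 between 24 h and 6 h (69.7%).

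**Figure D2:**
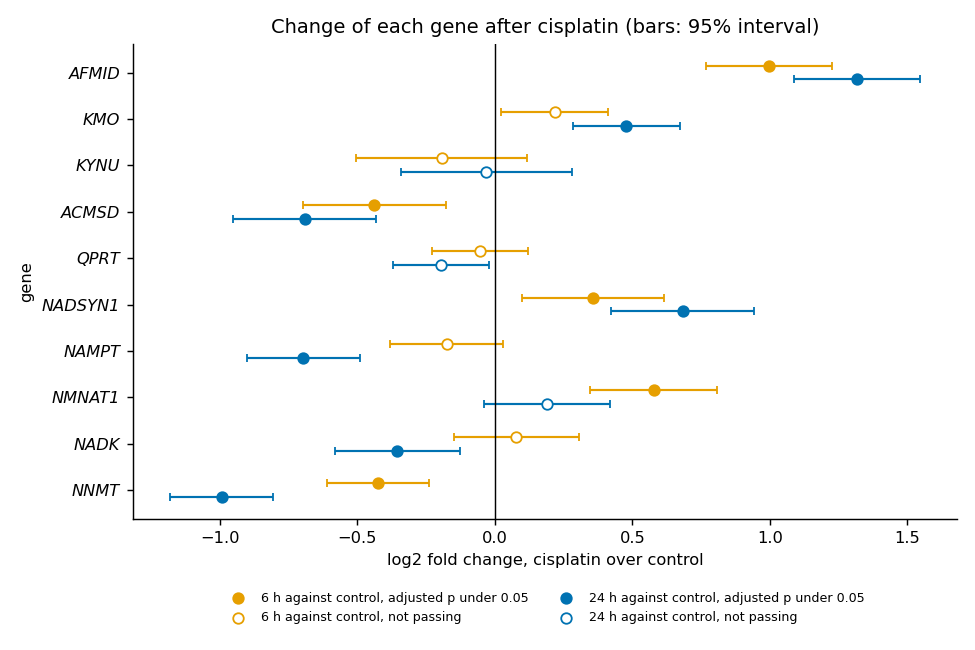
Log2 fold change of each member against control at 6 h and at 24 h, with the 95% interval from the fit as a line and filled points where the adjusted p was under 0.05. AFMID had the highest change at both times (0.996 and 1.32) and NNMT the lowest at 24 h (−0.99).

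Among the genes that open the pathway, AFMID showed the clearest rise. Its enzyme, arylformamidase, cuts the formyl group from N-formylkynurenine. AFMID had 5.69 and 5.71 in control, 6.64 and 6.75 at 6 h, and 7.14 and 6.89 at 24 h. Every cisplatin array was above both controls, and both 24 h arrays were above both 6 h arrays. It rose by 0.996 ± 0.10 at 6 h (log2 fold change ± SE, n = 2 arrays a group, adjusted p = 0.000136) and by 1.32 ± 0.10 at 24 h (2.49-fold, adjusted p = 1.09e-05). Its change at 24 h was larger in size than that of 93.1% of genes. Whether such shifts reflect more cells with the transcript or more transcript per cell cannot be told apart in bulk RNA. The difference of 0.32 between 24 h and 6 h passed at an adjusted p of 0.0354, but did so in only 1 of the 6 fits that left out an array, and it was −0.19 after scaling to all spike-ins. Under that scaling AFMID was still higher than control at 24 h, by 0.43. A second and dimmer AFMID probe set, with a mean of 3.90, did not pass, with values of 0.06 at 6 h and 0.06 at 24 h (adjusted p over all probe sets 0.789 and 0.714).

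KMO, which hydroxylates kynurenine, was dim throughout. Its signal was 2.86 and 3.01 in control, 3.17 and 3.14 at 6 h, and 3.44 and 3.39 at 24 h. The 3 groups did not overlap and stood in the order of time. KMO rose by 0.48 ± 0.08 at 24 h (adjusted p = 0.00157), while at 6 h its value was 0.22 (adjusted p = 0.0929). The 3 control probe sets without a target whose mean lay within 0.2 of that of KMO were also higher at 24 h than in control, by 0.28 to 0.41, and at 6 h differed by −0.03 to 0.01. The part of this background shift in the KMO value was not tested. Both directions turned after scaling to all spike-ins (−0.41 at 24 h and −0.15 at 6 h), and after scaling to the hybridization spike-ins the 24 h value was 0.07 (adjusted p = 0.607). The other KMO probe set, as dim with a mean of 3.04, changed by 0.27 at 24 h (adjusted p over all probe sets 0.0409).

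KYNU, the kynureninase that splits off alanine, did not pass at either time. It had 4.13 and 4.07 in control, 4.10 and 3.71 at 6 h, and 4.19 and 3.94 at 24 h, and the groups overlapped. The differences from control were −0.19 at 6 h (95% interval −0.50 to 0.12) and −0.03 at 24 h (−0.34 to 0.28), which leaves changes of that size unresolved. The other KYNU probe sets, with means of 2.76 and 2.23, were at the background level. The dimmest of these had values of 0.23 at 6 h and 0.25 at 24 h (adjusted p over all probe sets 0.0852 and 0.0398). Probe sets without a target of like mean, 2.19 and 2.22, changed by −0.03 each at 6 h and by 0.07 and 0.08 at 24 h.

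ACMSD, the decarboxylase that takes the intermediate away from quinolinate, had 5.21 and 4.98 in control, 4.63 and 4.68 at 6 h, and 4.28 and 4.53 at 24 h. Both 24 h arrays lay below both 6 h arrays, and these below both controls. Its single probe set fell by 0.69 at 24 h (adjusted p = 0.000971, 1.62-fold lower) and by 0.44 at 6 h (adjusted p = 0.0190). Without control replicate 1, 6 h replicate 1 or 6 h replicate 2 the 6 h call was lost (adjusted p between 0.0659 and 0.121). The step from 6 h to 24 h, −0.25, did not pass (adjusted p = 0.115).

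QPRT, which makes nicotinic acid mononucleotide from quinolinate, gave high signal and small differences. Its signal was 9.66 and 9.61 in control, 9.58 and 9.59 at 6 h, and 9.44 and 9.43 at 24 h. The groups did not overlap, yet the difference at 24 h was small, −0.20 (95% interval −0.37 to −0.02, adjusted p = 0.0573), and at 6 h it was −0.05 (−0.23 to 0.12). A second QPRT probe set of like brightness gave −0.24 at 24 h. With trend and robust settings in the fit the 24 h value passed (adjusted p = 0.00750). It also passed with the mean of probe sets (0.0236), without dim genes (0.0230) and scaled to housekeeping genes (0.0452). Both spike-in scalings passed too, with changes of −0.61 (hybridization) and −1.08 (all). A replicate block (0.0908) or a fit of only the groups compared (0.0980) did not.

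The genes of the last steps to NAD moved at different times. NADSYN1, the amidating NAD synthetase, had 5.22 and 5.14 in control, 5.41 and 5.67 at 6 h, and 5.76 and 5.97 at 24 h. All 6 h arrays were above control and both 24 h arrays above those. It rose by 0.68 ± 0.11 at 24 h (1.61-fold, adjusted p = 0.00103) and by 0.36 ± 0.11 at 6 h (adjusted p = 0.0445), values that were −0.20 and −0.01 after scaling to all spike-ins. The 6 h call was lost without 6 h replicate 2 (adjusted p = 0.279), control replicate 1 (0.106) or control replicate 2 (0.199). A dimmer NADSYN1 probe set gave 0.90 at 24 h and 0.78 at 6 h, both passing over all probe sets (adjusted p = 0.000516 and 0.00244). The means of the 2 sets were 5.53 and 4.13. Control probe sets without a target, with means of 5.26 and 4.22, were higher at 24 h by 0.77 and 0.59. At 6 h these differed from control by 0.01 and −0.05. The part of this background shift in the NADSYN1 values was not tested.

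NMNAT1, the nuclear adenylyltransferase that both routes to NAD need, had its highest signal at 6 h. It had 5.20 and 5.03 in control, 5.59 and 5.79 at 6 h, and 5.28 and 5.32 at 24 h. The 6 h arrays stood above all others, and the 24 h arrays lay just above control. NMNAT1 rose by 0.58 ± 0.10 at 6 h (1.49-fold, adjusted p = 0.00267), and its 24 h value of 0.19 did not pass (95% interval −0.04 to 0.42, adjusted p = 0.145). After scaling to all spike-ins the 6 h value was 0.21 and did not pass (adjusted p = 0.175). The 24 h value was −0.22 after scaling to the hybridization spike-ins (adjusted p = 0.0947). After scaling to all spike-ins it was −0.70 and passed as lower (adjusted p = 8.91e-05). With the mean of probe sets it was 0.26 and passed as higher (adjusted p = 0.0142). The value at 24 h was lower than at 6 h by a tested −0.39 (adjusted p = 0.0165), a call lost without 6 h replicate 2 (0.119) or 24 h replicate 1 (0.0618). The second NMNAT1 probe set, with a mean of 4.95, had the same shape: 0.80 at 6 h and 0.34 at 24 h (adjusted p over all probe sets 0.000729 and 0.0228). Control probe sets without a target, with means of 4.63 and 5.26, were higher at 24 h by 0.68 and 0.77.

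NADK, the cytosolic NAD kinase, had 7.70 and 7.57 in control, 7.60 and 7.82 at 6 h, and 7.32 and 7.24 at 24 h. Control and 6 h arrays overlapped, and both 24 h arrays lay below them. It fell by 0.35 ± 0.10 at 24 h (adjusted p = 0.0159), while its 6 h value was 0.08 (95% interval −0.15 to 0.31), or −0.29 after scaling to all spike-ins. Leaving out control replicate 1 or 24 h replicate 2 ended the 24 h call (adjusted p = 0.0918 and 0.0720). It was also lost when the 4 NADK probe sets were averaged (−0.01, adjusted p = 0.943), because the other 3 gave 0.08, −0.01 and 0.26. A set among those, with a mean of 7.49, was about as bright as the main set at 7.54.

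NAMPT, the enzyme that sets the pace of nicotinamide salvage, fell late. Its signal was 8.86 and 9.04 in control, 8.79 and 8.76 at 6 h, and 8.22 and 8.30 at 24 h. The 24 h arrays were clearly below the rest, and the 6 h arrays just below control. NAMPT fell by 0.70 ± 0.09 at 24 h (1.62-fold lower, adjusted p = 0.000238), and at 6 h its value was −0.18 (95% interval −0.38 to 0.03, adjusted p = 0.193). The difference between 24 h and 6 h, −0.52, passed too (adjusted p = 0.00247). A second NAMPT probe set, with a mean of 8.14, had a value of 0.06 at 24 h (adjusted p over all probe sets 0.675), and the dimmest, near background (2.74), had 0.32 (0.0438). With the 3 sets averaged NAMPT no longer passed at 24 h (−0.10, adjusted p = 0.294), so its fall rests on 1 probe set.

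NNMT, which methylates nicotinamide and so takes it out of salvage, fell in steps with time. It had 11.12 and 11.04 in control, 10.63 and 10.68 at 6 h, and 10.05 and 10.13 at 24 h. The 3 groups were far apart relative to the replicate spread, whose SD was at most 0.06. NNMT fell by 0.43 ± 0.08 at 6 h (adjusted p = 0.00452) and by 0.99 ± 0.08 at 24 h (1.99-fold lower, adjusted p = 1.70e-05). The further step to 24 h was −0.57 (adjusted p = 0.00101). Each of these calls held without each array in turn, when the change at 24 h lay between −1.03 and −0.95. NNMT has 1 probe set on the array, so no second reading was at hand.

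**Figure D3:**
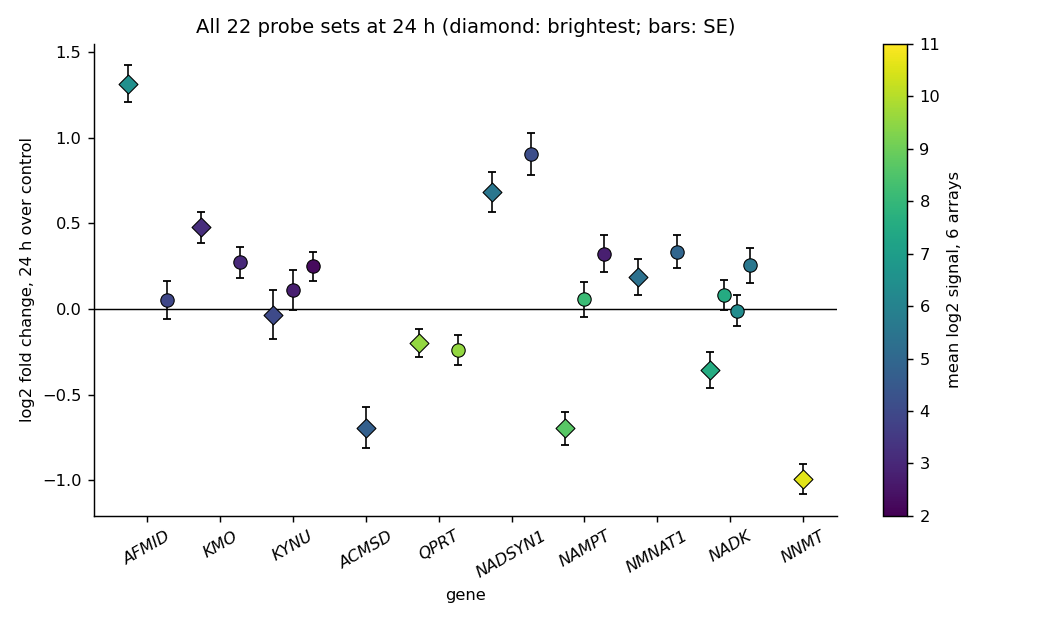
Log2 fold change at 24 h against control for all 22 probe sets of the members, grouped by gene on the horizontal axis. Diamonds mark the brightest set of each member, colour gives the mean log2 signal over 6 arrays, and bars are SE. The sets of NADSYN1 (0.68 and 0.90) lay together, while those of NAMPT (−0.70, 0.06 and 0.32) and NADK (−0.35, 0.08, −0.01 and 0.26) lay apart.

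Over the 22 probe sets, 8 were higher and 4 lower at 24 h, against 25.3% higher and 20.4% lower over all single-gene probe sets. Those higher include dim sets of KMO (means 3.17 and 3.04), NAMPT (2.74) and KYNU (2.23). At such levels control probe sets without a target were also higher at 24 h. Of the 8 members with several sets, 5 had all sets on 1 side of 0 at 24 h. Sets whose name ends in s_at or x_at were designed with probes shared by more than 1 transcript, and the main sets of QPRT, NADSYN1 and NMNAT1 are of this kind, as is the second NAMPT set. RefSeq lists 3 pseudogenes named for KYNU, 3 for NAMPT and 5 for NMNAT1, so signal from copies cannot be told apart from the genes in such sets.

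The start of AFMID lies 158 bases from a start of TK1, the thymidine kinase of S phase, on the other strand. TK1 had 9.38 and 9.28 in control, 9.67 and 9.58 at 6 h, and 10.29 and 10.30 at 24 h. It was higher by 0.29 at 6 h (adjusted p = 0.0294) and by 0.96 at 24 h (adjusted p = 2.14e-05). In the deposited values both genes of this pair rose, AFMID mainly by 6 h and TK1 mainly after it. The spike-in probe sets exceeded control by 0.37 at 6 h and 0.89 at 24 h, more than TK1 at 6 h and nearly as much at 24 h. NMNAT1 starts 84 bases from LZIC on the other strand, and LZIC had values of −0.03 at 6 h and 0.05 at 24 h (adjusted p = 0.864 and 0.702).

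The rest of the pathway was read from 6 lists of 67 genes, all measured. At 24 h 23 were higher (34.3%) and 14 lower (20.9%), against 31.2% and 23.0% of all genes, and at 6 h 13 were higher (19.4%) and 5 lower (7.46%), against 14.0% and 15.8% of all genes. Scaled to all spike-ins, 1 of the 67 was higher (1.49%) and 56 lower (83.6%) at 24 h, against 3.25% and 88.3% of all genes, and the median of each list was below 0. Among the 9 other genes of tryptophan and kynurenine breakdown, 2 rose and 0 fell at 24 h, with a median of 0.15 against 0.10 over all genes. AADAT, an aminotransferase that makes kynurenic acid, rose by 0.92 at 6 h (adjusted p = 0.000745) and by 0.75 at 24 h (adjusted p = 0.00117). KYAT1, another such aminotransferase, rose by 0.50 at 24 h (adjusted p = 0.00244). The enzymes of the first step did not pass, with IDO1 at 0.28 and TDO2 at 0.16, nor did HAAO at 0.15. IDO1 and TDO2 were dim, with means of 3.66 and 2.57. Probe sets without a target with means of 3.72 and 2.60 were higher at 24 h by 0.53 and 0.11.

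Of 11 further genes of NAD synthesis and upkeep, 4 rose and 2 fell at 24 h, against 31.2% and 23.0% of all genes. Their median was 0.15. PNP, the purine nucleoside phosphorylase that frees nicotinamide from its riboside, rose by 0.67 at 6 h (adjusted p = 0.000289) and by 0.75 at 24 h (adjusted p = 6.88e-05). NMRK1, a nicotinamide riboside kinase, rose by 0.38 at 24 h, and NUDT12, a hydrolase of NADH, rose by 0.33. Their means were 4.38 and 5.55, and probe sets without a target with means of 4.22 and 5.26 were higher by 0.59 and 0.77. The part of that shift in these values was not tested. NAXD, a dehydratase that repairs hydrated NADH, rose by 0.28. NNT, the mitochondrial transhydrogenase, fell by 0.44 and NAXE, the epimerase of the same repair, fell by 0.29. NAPRT, the entry of the nicotinic acid route, had a value of 0.10 (adjusted p = 0.371).

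NAD-consuming enzymes had the highest median of the 6 lists at 24 h, 0.30. Of the 19, 10 were higher (52.6%) and 3 lower (15.8%), against 31.2% and 23.0% of all genes. SIRT4, a mitochondrial sirtuin, rose by 0.93 at 6 h and by 2.06 at 24 h (adjusted p = 2.18e-06). SIRT1 rose by 0.97 at 6 h and by 0.95 at 24 h, SIRT2 by 0.40 and 0.96, and SIRT7 by 0.55 and 0.74. The other 3 sirtuins passed at 24 h as well, making 7 of 7 sirtuins higher, a group that was not 1 of the 6 lists. Scaled to all spike-ins, 1 of the 7 passed as higher and 1 as lower, with a median of −0.15. Over all genes that scaling gave 3.25% higher and 88.3% lower. The 3 genes that fell were all of the poly-ADP-ribosyl transferase family: TNKS2 by 0.78, TNKS by 0.54 and PARP4 by 0.24. Others of that family rose: PARP14 by 0.51, PARP10 by 0.50 and PARP3 by 0.30 (adjusted p = 0.000927, 0.00399 and 0.0239). PARP2 and PARP9 did not pass. PARP1, the main such enzyme at DNA breaks, had a value of −0.28 at 24 h (adjusted p = 0.0672).

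**Figure D4:**
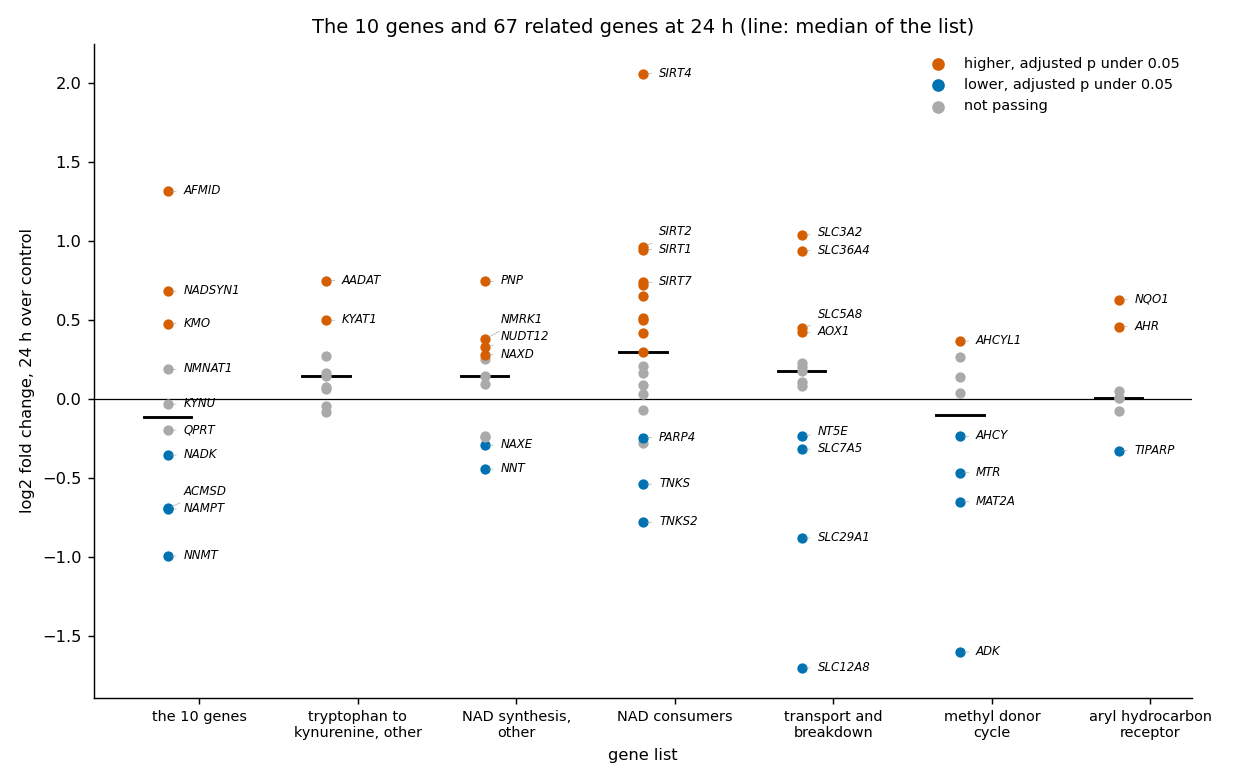
Log2 fold change at 24 h against control (vertical axis) of the 10 members and of each gene in the 6 pathway lists (horizontal axis). Orange points passed as higher, blue as lower and grey did not pass, and a black line gives the median of each list. SIRT4 (2.06) is the highest point, and SLC12A8 (−1.70) and ADK (−1.602) are the lowest.

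Genes that move or break down the precursors split evenly at 24 h, with 4 of 13 higher and 4 lower. Of all genes, 31.2% were higher and 23.0% lower. SLC3A2 and SLC7A5, the partners of the large neutral amino acid carrier for tryptophan and kynurenine, differed in sign: SLC3A2 rose by 1.04 (adjusted p = 9.65e-06) and SLC7A5 fell by 0.32 (adjusted p = 0.0116). SLC36A4, a carrier that also takes tryptophan, rose by 0.94. SLC12A8, described as a nicotinamide mononucleotide carrier in mice, fell by 1.06 at 6 h and fell by 1.70 at 24 h (adjusted p = 1.56e-05). SLC29A1, a nucleoside carrier, fell by 0.88 and NT5E, an ectonucleotidase, by 0.23 (adjusted p = 0.0479). AOX1, which oxidizes methylated nicotinamide, rose by 0.42 and the dim SLC5A8, a nicotinate carrier with a mean of 2.55, by 0.45.

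Of 8 genes of the methyl donor cycle that NNMT draws on, 1 rose and 4 fell at 24 h, with a median of −0.10. Of all genes, 31.2% rose and 23.0% fell. Scaled to all spike-ins, 8 of the 8 were lower at 24 h, against 88.3% of all genes. MAT2A, which makes S-adenosylmethionine, fell by 0.72 at 6 h (adjusted p = 0.000191) and by 0.65 at 24 h (adjusted p = 0.000146). ADK, which removes the adenosine set free in the cycle, fell by 1.602 at 24 h (adjusted p = 1.42e-06), its 6 h value being −0.14. MTR, the methionine synthase, fell by 0.47 and AHCY, which clears S-adenosylhomocysteine, by 0.24, and AHCYL1, a relative of AHCY, rose by 0.37. Around the aryl hydrocarbon receptor, which binds kynurenine, 2 of 7 genes rose and 1 fell at 24 h, against 31.2% and 23.0% of all genes. AHR itself rose by 0.77 at 6 h (adjusted p = 0.000394) and by 0.46 at 24 h (adjusted p = 0.00343), and NQO1 rose by 0.63 at 24 h. The AHR target CYP1A1, dim with a mean of 3.79, had a value of 0.05 at 24 h. TIPARP, a receptor target that damps the receptor, fell by 0.44 at 6 h and by 0.33 at 24 h. CYP1B1, another target, fell by 0.77 at 6 h and had a value of −0.08 at 24 h.

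**Figure D5:**
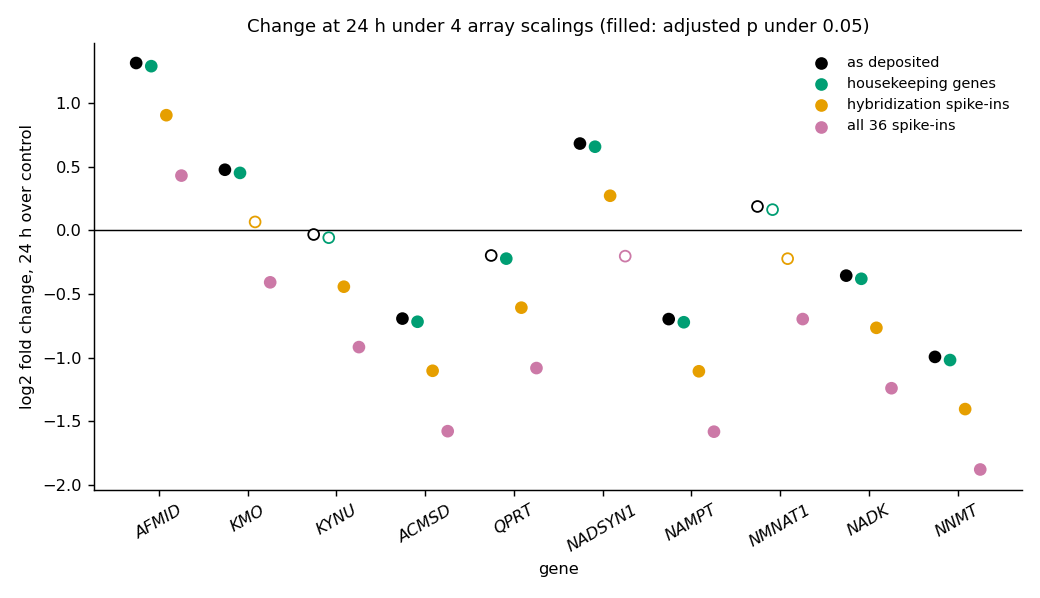
Log2 fold change of each member at 24 h against control in the deposited values and after scaling to housekeeping genes, to the hybridization spike-ins and to all spike-ins, with filled points where the adjusted p was under 0.05. ACMSD, NAMPT, NNMT, NADK and QPRT stayed below 0 and AFMID above 0 under each scaling, while KMO, NADSYN1 and NMNAT1 fell below 0 with all spike-ins (−0.41, −0.20 and −0.70).

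As a check of the cell type, 11 of 15 listed proximal tubule markers were measured, and 8 or 9 of them were below a log2 signal of 5 on every array, LRP2, AQP1 and SLC22A6 among them. Their summed log2 signal was 51.7 and 51.9 at 24 h, and 56.4 and 54.9 in control. PAX8 and CDH6, above 5 on every array, fell at 24 h, with changes of −1.88 and −3.55. The dimmer CUBN and SLC34A1, with means of 4.30 and 4.71, rose by 0.50 and 0.39. Of 6 epithelial markers 0 rose and 3 fell at 24 h, and the summed signal was 46.4 and 47.6 at 24 h, and 50.0 and 49.7 in control. Of 4 leukocyte markers measured 2 rose at 24 h, CD68 among them by 0.97, with a summed signal of 18.3 and 18.4 at 24 h, and 17.4 and 17.1 in control. Of 6 fibroblast, 4 endothelial and 4 distal nephron markers measured, 1, 1 and 2 rose and 0 fell at 24 h, against 31.2% and 23.0% of all genes. PDGFRB and VWF, with means of 3.78 and 4.55, rose by 0.48 and 0.47. SLC12A1 and CALB1, with means of 3.50 and 2.80, rose by 0.29 and 0.33. Probe sets without a target, with means of 2.85, 3.72, 4.22 and 4.63, were higher at 24 h by 0.19, 0.53, 0.59 and 0.68. The part of this background shift in the marker values was not tested. PTPRC, the defining marker of leukocytes, was near background at 2.83. The part of these shifts in the members' changes was not tested.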

How the data were processed

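RNA of HK-2 cells was measured on 6 arrays, 2 per group (control, 50 μM cisplatin for 6 h, 50 μM cisplatin for 24 h), grouped by the labels. The authors deposited log2 signals made in Affymetrix Expression Console 1.1 by the RMA method, which corrects the background, sets all arrays to 1 distribution and summarizes each probe set. No further normalization was applied. Probe sets were named by the platform annotation, and Entrez numbers updated the symbols of 45172 of 45253 single-gene sets, and the brightest set stood for each of 18239 genes. The number of arrays limits the precision.

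A single limma 3.58.1 fit (lmFit, eBayes, R 4.3.3) covered the 3 groups, p-values were adjusted over all genes (Benjamini-Hochberg), and the threshold was 0.05. It was tested on simulated data. Probe sets were fitted the same way, and promoters were read from RefSeq (GRCh38.p14). Python 3.11.15, pandas 2.3.3, numpy 2.4.6, scipy 1.17.1 and matplotlib 3.10.9 did the rest.

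The members and the gene lists were chosen with earlier results of these data known. The text names every member and, from each list, up to 4 genes per direction among those passing at 24 h, ordered by size of change, plus SLC7A5, NAPRT, PARP1, SIRT1 and AHR. IDO1, TDO2, HAAO, CYP1A1, CYP1B1, PARP2, PARP3, PARP9, PARP10, PARP14 and the cell type markers were named after their values were seen. The sirtuins were counted as a group of their own outside the 6 lists. The alternatives were a replicate block, the mean of probe sets, trend and robust moderation, only the groups compared, a filter on dim genes (log2 signal of at least 5 on at least 2 arrays), scaling to 36 spike-ins, 9 hybridization spike-ins or 10 measured of 13 listed housekeeping genes, the rule of the methods, an adjusted p under 0.01, and leaving out each array. Some listed cell type markers were not analysed here.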

Additional observations from a re-analysis of the deposited data

Results flagged for a closer look

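For 6 members the change against control at 24 h differed from that at 6 h by a test of the difference itself, the 24 h against 6 h contrast of the limma fit. Of these, 2 were higher and 4 lower, and the same contrast called 21.2% of all genes higher and 16.7% lower. The shared control arrays cancel in that difference. NNMT had the largest, −0.57 on the log2 scale (adjusted p = 0.00101), followed by NAMPT with −0.52 (adjusted p = 0.00247), and for both genes the call held without each array in turn. With its 3 probe sets averaged NAMPT no longer passed (−0.0753, adjusted p = 0.498). NADK differed by −0.43 (adjusted p = 0.00985, lost at 0.0775 without 6 h replicate 2), but with its 4 probe sets averaged the difference was 0.0188 (adjusted p = 0.862). The other 3 NADK sets gave 0.18, 0.03 and 0.30. The next was NMNAT1, higher than control at 6 h but not passing at 24 h, with −0.39 (adjusted p = 0.0165). AFMID differed by 0.32 (adjusted p = 0.0354) and KMO by 0.26 (adjusted p = 0.0418), and the call was lost in 5 of the 6 fits without an array for AFMID and in 4 of the 6 for KMO. Groups of 2 arrays are too small for a check of single arrays that stand apart.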

How the results depend on the processing

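Of 231 fold changes of members under other settings, 179 kept their direction and side of the threshold, 13 lost and 20 gained a call, and 19 reversed. Of 180 fold changes without 1 array, 154 were kept, 20 lost and 3 gained a call, and 3 reversed. Counts of members are given apart from these.

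Scaling to all spike-ins gave 1 higher and 8 lower members at 24 h (3 and 4 in the deposited values), 1 and 5 at 6 h (3 and 2), and 0 and 7 between the times (2 and 4). Of all genes, the same scaling gave 3.25% higher and 88.3% lower at 24 h. The shares were 3.78% and 56.2% at 6 h, and 2.53% and 70.6% between the times. The methods' 2-fold rule gave 1 higher and 0 lower at 24 h, and 0 in each direction at 6 h and between the times. Members lower at 6 h numbered 1 without dim genes and 1 at an adjusted p under 0.01. Members higher at 24 h than at 6 h numbered 0 with the mean of probe sets, 1 with only the groups compared, 0 with the hybridization spike-ins and 0 at an adjusted p under 0.01, and members lower numbered 2 with the mean of probe sets. Without 1 array, 3 to 3 members were higher and 3 to 4 lower at 24 h, 2 to 3 and 1 to 2 at 6 h, and 0 to 1 and 2 to 5 between the times.

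Directions reversed at 24 h for KYNU with the mean of probe sets (0.11), for KMO (−0.41), NADSYN1 (−0.20) and NMNAT1 (−0.70) with all spike-ins, and for NMNAT1 with the hybridization spike-ins (−0.22). At 6 h they reversed for KYNU (0.0145) and NADK (−0.0256) with the mean of probe sets, for KMO (−0.15), NADSYN1 (−0.0139) and NADK (−0.29) with all spike-ins, and for NADK with the hybridization spike-ins (−0.0192) and with housekeeping genes (−0.00574). Between the times they reversed for AFMID (−0.19), KYNU (−0.35), KMO (−0.25) and NADSYN1 (−0.19) with all spike-ins, for KYNU (−0.15) and KMO (−0.0530) with the hybridization spike-ins, and for NADK with the mean of probe sets (0.0188). Without 1 array, KYNU at 24 h ranged from −0.15 to 0.0906, NADK at 6 h from −0.0295 to 0.19, and KYNU between the times from −0.0297 to 0.35. Spike-in scaling shifts every gene by 1 amount per array, and what moved the spike-ins was not tested.

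The labels do not say whether the replicate numbers pair the samples. The differences between replicates correlated at −0.131, −0.224 and 0.163 between groups, and 3 such values cannot settle it. With the replicate block, KMO between the times lost its call (adjusted p = 0.0618), NADSYN1 between the times gained one (adjusted p = 0.0427), and no other call changed. With 2 arrays a group, small changes such as those of KYNU are not resolved, and whether QPRT or NMNAT1 passed at 24 h depended on the setting. Signals near background, as of KMO, are compressed.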

Other observations

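Among all 18239 genes, those whose 6 array values, each set relative to control, lay nearest to AFMID were BTG1 (Euclidean distance 0.134 on the log2 scale), MBD4 (0.177) and TMX4 (0.181). BTG1, an antiproliferative gene, had changes of 0.97 at 6 h and 1.29 at 24 h. MBD4, a DNA glycosylase that acts on mismatched bases, had 0.998 and 1.38, and TMX4, a thioredoxin-related membrane protein, had 0.97 and 1.33. The nearest to NNMT were SLC38A1 (0.0772), SLC35H1 (0.0794) and SLTM (0.0974). SLC38A1, a glutamine carrier, had changes of −0.41 at 6 h and −1.02 at 24 h, SLC35H1 had −0.43 and −0.94, and SLTM had −0.44 and −1.04. These are descriptions over 6 arrays, and likeness was ranked for these 2 members only.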
